A study of Mus musculus with 15 samples.

Results

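Resident alveolar macrophages are the phagocytes that live on the air side of the alveolar wall, where they clear inhaled particles and spent surfactant. The 8 genes described here are Marco, Msr1, Cd36, Pparg, Fabp4, Itgax, Plet1 and Krt79, named for the identity of these cells and for their scavenger receptors, the surface proteins that take up particles and modified lipids. They were found as the array probes whose RefSeq accession belongs to one of the 8 genes, which gave 10 probes, and all 8 genes were among the 25251 genes and unnamed transcripts tested. Msr1 and Plet1 each had more than 1 probe, and the brighter probe stood for the gene.

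The samples were lung RNA of female C57BL/6 mice aged 7 to 8 weeks, collected 24 h after the last exposure to rod-like carbon nanotubes (rCNT) or a control, to compare the routes of exposure. In the aspirated rCNT group (n = 4) 10 ug of the tubes in 50 ul of phosphate-buffered saline (PBS) was placed in the throat daily and drawn into the lungs, on 4 days, and the PBS group (n = 4) had 50 ul of the saline alone by the same route. The inhaled rCNT group (n = 3) breathed an aerosol of 6.2 to 8.2 mg/m3 for 4 h a day on 4 days, and the untreated group (n = 4) was its control. A higher aspirated dose named in the study's design is not analysed here. The labels do not say whether each sample is 1 animal, so p-values cover only how these samples vary, and part of that variation may be technical. The title of untreated replicate 1 names an aspiration of PBS, whereas its other labels name an untreated inhalation control, and it was kept as untreated.

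RNA was hybridised to 14 arrays on 3 slides, and 13 channels hold RNA of no sample here. All 8 aspiration samples were on slide 1 and all inhalation and untreated samples on slides 2 and 3, so that any difference between the aspiration and the inhalation samples cannot be told apart from a difference between slides. Between 54.6% and 64.7% of the spots of a channel were well above background, and samples of a group correlated at 0.994 to 0.998. Levels are log2 intensities after background correction and quantile normalization, so they can be set side by side between samples of a gene and not between genes, and sample values are listed by replicate number. Fold changes are differences of these log2 levels, and a gene passed where limma's adjusted p over all 25251 tests was under 0.05. As a check of the tissue, 12 of 12 alveolar type 2 genes, 23 of 23 endothelial genes and 27 of the 29 other alveolar macrophage genes tested were well above background in all 15 samples. In whole lung, fewer cells of a type and less RNA per cell cannot be told apart.

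As background, alveolar macrophages arise from fetal monocytes under GM-CSF, the cytokine encoded by Csf2, and TGF-beta, which induce the nuclear receptor PPAR-gamma. PPAR-gamma drives genes of fatty acid uptake, storage and cholesterol export that these cells need to handle surfactant lipid. The class A scavenger receptors MARCO and MSR1 bind bare particles and bacteria, and in mice they take part in the uptake of mineral and carbon particles by macrophages.

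After aspiration Msr1 and Itgax rose about 2.8-fold, while Cd36, Krt79 and Pparg fell. After inhalation Marco rose 2.29-fold and Itgax 1.49-fold over untreated lungs, and Cd36 and Pparg fell. Set against PBS lungs, neither Marco nor Itgax passed in inhaled rCNT lungs. By its brighter probe Plet1 rose 1.4-fold after either exposure, but its other probe did not pass after inhalation. Of the 8 genes 3 were higher and 4 lower after aspiration, where 47.2% of all genes tested passed (20.7% higher and 26.4% lower). After inhalation 3 were higher and 2 lower, where 60.9% of all genes passed (28.4% higher and 32.5% lower). The samples of the exposed group and its control did not overlap for 7 of the 8 genes after aspiration, against 42.4% of all genes, and for 5 of the 8 after inhalation, against 54.8%.

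**Figure D1:**
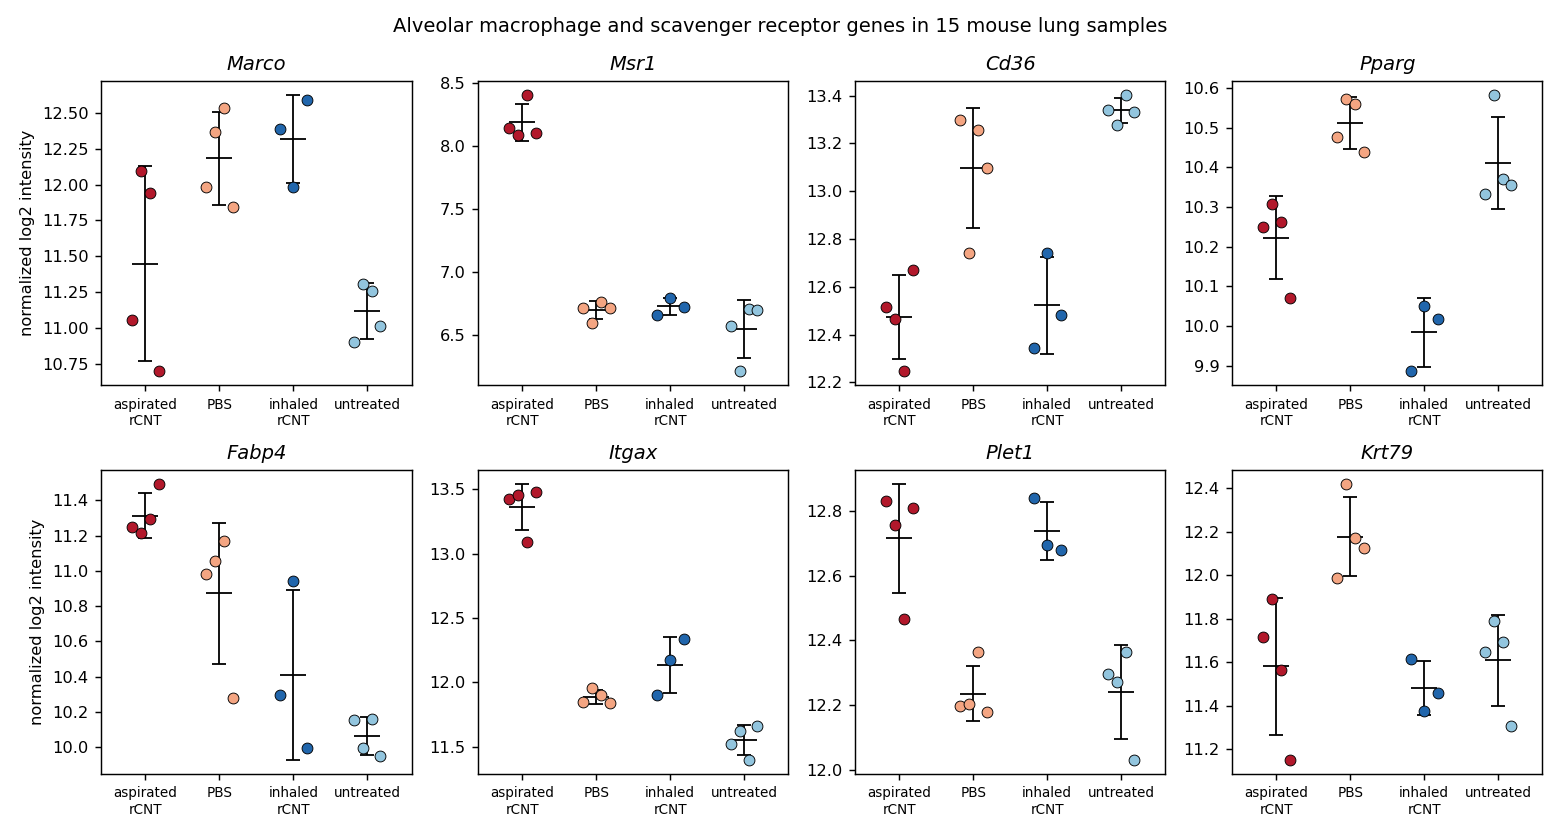
Normalized log2 intensity of each of the 8 genes in the 15 samples, with 1 point per sample and bars for the mean and SD of the group. Msr1 and Itgax are highest in aspirated rCNT lungs, Cd36 and Pparg are low in both rCNT groups, and Marco is split within the aspirated rCNT group.

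Marco and Msr1 encode the class A scavenger receptors. Marco was at 11.06, 12.10, 11.94 and 10.70 in aspirated rCNT lungs, against 11.99, 12.37, 12.53 and 11.85 in PBS lungs. In inhaled rCNT lungs it was at 12.39, 11.99 and 12.59, against 10.90, 11.30, 11.26 and 11.02 in untreated lungs. The aspirated rCNT samples were split, 2 lying within the range of the PBS lungs and 2 below it, whereas all 3 inhaled rCNT samples lay above all untreated ones. The change was 1.20 ± 0.28 after inhalation (log2, SE, limma adjusted p = 0.00151) and -0.73 ± 0.26 after aspiration (adjusted p = 0.0275). The aspiration call was lost without replicate 1 (adjusted p = 0.0929) or 4 (0.114) of the aspirated rCNT group, and without replicate 2 (0.0731) or 3 (0.0915) of the PBS group. PBS lungs themselves stood 1.06 ± 0.26 above untreated lungs (adjusted p = 0.00213), and inhaled rCNT lungs differed from PBS lungs by 0.13 ± 0.28 (95% interval -0.46 to 0.73, adjusted p = 0.705).

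Msr1 was at 8.14, 8.09, 8.40 and 8.11 in aspirated rCNT lungs and at 6.71, 6.59, 6.76 and 6.71 in PBS lungs. It was at 6.66, 6.79 and 6.72 in inhaled rCNT lungs and at 6.57, 6.21, 6.70 and 6.69 in untreated lungs, of which 3 of 4 were well above background. All aspirated rCNT samples stood clear of every other sample, and the other 3 groups overlapped. The change was 1.49 ± 0.10 after aspiration (limma adjusted p = 7.89e-09) and 0.18 ± 0.11 after inhalation (95% interval -0.05 to 0.41, adjusted p = 0.164). The other Msr1 probe, well above background in 1 of 4 untreated samples, gave 1.18 ± 0.12 after aspiration (adjusted p = 5.48e-07) and 0.12 ± 0.13 after inhalation (0.43). These are low intensities, and with Agilent's processed signal in place of the background correction used here the aspiration change was 2.72.

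Cd36 and Pparg were lower after both exposures. Cd36 encodes a receptor for fatty acids and oxidized lipoproteins that capillary endothelium and adipocytes also express. It was at 12.51, 12.47, 12.25 and 12.67 in aspirated rCNT lungs and at 13.30, 12.74, 13.25 and 13.10 in PBS lungs. It was at 12.34, 12.74 and 12.48 in inhaled rCNT lungs and at 13.34, 13.28, 13.40 and 13.33 in untreated lungs. Neither exposed group overlapped its own control, and the change was -0.62 ± 0.11 after aspiration (limma adjusted p = 0.000324) and -0.83 ± 0.12 after inhalation (3.06e-05). With each array centred on its median in place of quantile normalization (median centring), the inhalation change was -1.27.

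Pparg encodes the nuclear receptor itself. It was at 10.25, 10.31, 10.26 and 10.07 in aspirated rCNT lungs, against 10.48, 10.57, 10.56 and 10.44 in PBS lungs. Its level was 9.89, 10.05 and 10.02 in inhaled rCNT lungs, against 10.33, 10.58, 10.37 and 10.36 in untreated lungs. No sample of an exposed group reached its control group. The change was -0.29 ± 0.07 after aspiration (limma adjusted p = 0.00264) and -0.41 ± 0.08 after inhalation (0.000188), the last -0.70 with median centring. The array carries 10 spots of the Pparg probe, whose SD within a channel was 0.0869 to 0.152.

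The direction of Cd36, Pparg, Itgax and Plet1 was shared by both exposures, so the 300 bases around their RefSeq transcription starts (build GRCm38.p6, 250 bases before the start and 50 after) are shown for these 4 genes. Capitals mark AGGTCA, the core of nuclear receptor response elements such as those of PPAR-gamma, and TTGCNNAA, a C/EBP motif, each on either strand.
Cd36, chr5:17835847-17836146, minus strand: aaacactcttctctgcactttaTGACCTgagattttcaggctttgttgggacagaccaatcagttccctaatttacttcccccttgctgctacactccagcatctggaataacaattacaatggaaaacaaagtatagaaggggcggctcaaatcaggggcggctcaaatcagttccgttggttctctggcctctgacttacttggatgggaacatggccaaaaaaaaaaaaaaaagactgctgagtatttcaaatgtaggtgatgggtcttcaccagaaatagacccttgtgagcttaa
Pparg, chr6:115362099-115362398, plus strand: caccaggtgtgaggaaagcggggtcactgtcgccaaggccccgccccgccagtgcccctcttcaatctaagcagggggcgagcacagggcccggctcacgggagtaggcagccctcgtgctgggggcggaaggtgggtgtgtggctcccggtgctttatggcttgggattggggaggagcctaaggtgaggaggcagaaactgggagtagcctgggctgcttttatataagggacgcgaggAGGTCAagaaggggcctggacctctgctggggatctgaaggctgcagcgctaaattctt
Itgax, chr7:128129300-128129599, plus strand: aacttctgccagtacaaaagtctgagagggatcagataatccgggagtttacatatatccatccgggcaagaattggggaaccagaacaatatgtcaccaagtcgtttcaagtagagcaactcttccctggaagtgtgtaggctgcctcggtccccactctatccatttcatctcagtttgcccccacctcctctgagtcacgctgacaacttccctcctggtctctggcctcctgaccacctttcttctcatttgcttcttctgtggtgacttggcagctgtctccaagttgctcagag
Plet1, chr9:50494275-50494574, plus strand: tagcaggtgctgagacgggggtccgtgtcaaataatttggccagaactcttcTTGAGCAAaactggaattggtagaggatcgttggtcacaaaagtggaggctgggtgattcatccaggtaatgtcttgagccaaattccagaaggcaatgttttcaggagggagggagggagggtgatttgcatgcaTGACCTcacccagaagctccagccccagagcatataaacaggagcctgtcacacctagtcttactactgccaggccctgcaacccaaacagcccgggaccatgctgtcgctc
The Cd36 window holds the nuclear receptor core as TGACCT from base -228, counted from the start site. The Pparg window shown, the middle of 3 in the table, holds it from base -9, the one before it holds AGGTCA from base -28, and the one after it holds the C/EBP matches TTGCCAAA from base -215 and TTTTGCAA from base -16. The Plet1 window holds TGACCT from base -62 and the C/EBP match TTGAGCAA from base -198. None of these motifs, nor GAGGAAGT (PU.1) or CACGTG (E-box), which were searched too, is in the Itgax window or in those of Marco and Krt79. Of 32851 promoter windows, 16.3% hold AGGTCA, 10.8% TTGCNNAA, 3.2% GAGGAAGT and 7.15% CACGTG, so these matches are common and describe letters only.

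Itgax encodes CD11c, an integrin chain that in lung marks alveolar macrophages and dendritic cells. It was at 13.43, 13.45, 13.09 and 13.48 in aspirated rCNT lungs and at 11.85, 11.95, 11.90 and 11.84 in PBS lungs. It was at 11.90, 12.17 and 12.33 in inhaled rCNT lungs and at 11.52, 11.62, 11.40 and 11.66 in untreated lungs. Both exposed groups lay above their controls, the aspirated one by far more. The change was 1.48 ± 0.10 after aspiration (limma adjusted p = 6.61e-09) and 0.57 ± 0.11 after inhalation (0.000229). Within slide 2, which holds 1 inhaled rCNT sample, the inhalation change was 0.33, and within slide 3, which holds 1 untreated sample, it was 0.63, with no test of either. With median centring it was 0.21 (adjusted p = 0.178). Inhaled rCNT lungs differed from PBS lungs by 0.24 ± 0.11 (limma adjusted p = 0.0683), and their samples overlapped. That call changed under 4 of 27 other settings.

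Plet1 encodes a glycoprotein anchored in the cell surface that mouse alveolar macrophages carry. It was at 12.83, 12.76, 12.47 and 12.81 in aspirated rCNT lungs and at 12.20, 12.20, 12.36 and 12.18 in PBS lungs. It was at 12.84, 12.70 and 12.68 in inhaled rCNT lungs and at 12.30, 12.27, 12.36 and 12.03 in untreated lungs. Neither exposed group overlapped its control, with changes of 0.48 ± 0.09 (limma adjusted p = 0.000356) after aspiration and 0.49 ± 0.10 (0.000391) after inhalation. The other Plet1 probe gave 0.27 ± 0.10 (adjusted p = 0.0374) after aspiration and 0.15 ± 0.11 (0.246) after inhalation, and with median centring the inhalation change of the brighter probe was 0.08 (0.654).

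Fabp4 and Krt79 are genes of alveolar macrophages that other tissues express strongly, adipose tissue in the case of Fabp4, a fatty acid binding protein, and skin epithelium in that of Krt79, a keratin. Fabp4 was at 11.25, 11.21, 11.29 and 11.49 in aspirated rCNT lungs and at 10.98, 11.05, 11.17 and 10.28 in PBS lungs. It was at 10.29, 10.94 and 10.00 in inhaled rCNT lungs and at 10.16, 9.99, 10.16 and 9.95 in untreated lungs. The aspirated rCNT samples were just above the PBS samples, but the change of 0.44 ± 0.19 did not pass (95% interval 0.04 to 0.84, limma adjusted p = 0.0649), and that of 0.35 ± 0.20 after inhalation did not either (-0.08 to 0.78, adjusted p = 0.151). Single samples set these sizes: without PBS replicate 4 the aspiration change was 0.22, and without inhaled rCNT replicate 2 the inhalation change was 0.0034. The calls also turned on them, since the aspiration change passed without PBS replicate 3 (adjusted p = 0.0347) or inhaled rCNT replicate 2 (0.0188) or 3 (0.046), and the inhalation change without inhaled rCNT replicate 3 (0.0349) or PBS replicate 4 (0.0486).

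Krt79 was at 11.72, 11.89, 11.57 and 11.15 in aspirated rCNT lungs and at 11.99, 12.42, 12.17 and 12.13 in PBS lungs. It was at 11.62, 11.38 and 11.46 in inhaled rCNT lungs and at 11.65, 11.79, 11.69 and 11.31 in untreated lungs. All aspirated rCNT samples were below the PBS samples, which were the highest of all, and the inhaled rCNT samples overlapped the untreated ones. The change was -0.60 ± 0.13 after aspiration (limma adjusted p = 0.00177) and -0.11 ± 0.15 after inhalation (95% interval -0.42 to 0.21, adjusted p = 0.555). With median centring the inhalation change was -0.49 (adjusted p = 0.0123). Of the 8 squamous markers tested, of which 7 were well above background in all samples, 1 rose and 3 fell after aspiration, and 1 rose and 2 fell after inhalation. Over all genes tested 47.2% passed after aspiration and 60.9% after inhalation, so these counts are near or below the shares of all genes. Sbsn, a gene of differentiated epidermis, changed by -0.78 ± 0.07 after aspiration (limma adjusted p = 3.49e-07) and 0.13 ± 0.08 after inhalation (0.176). Krt10, a keratin of the same layers, changed by -0.29 ± 0.07 (0.00192) after aspiration and -0.39 ± 0.07 (0.00022) after inhalation. Krt5, a basal cell keratin, gave 0.21 (0.144) after aspiration and 0.19 (0.187) after inhalation. The part of such cells in the fall of Krt79 was not tested.

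**Figure D2:**
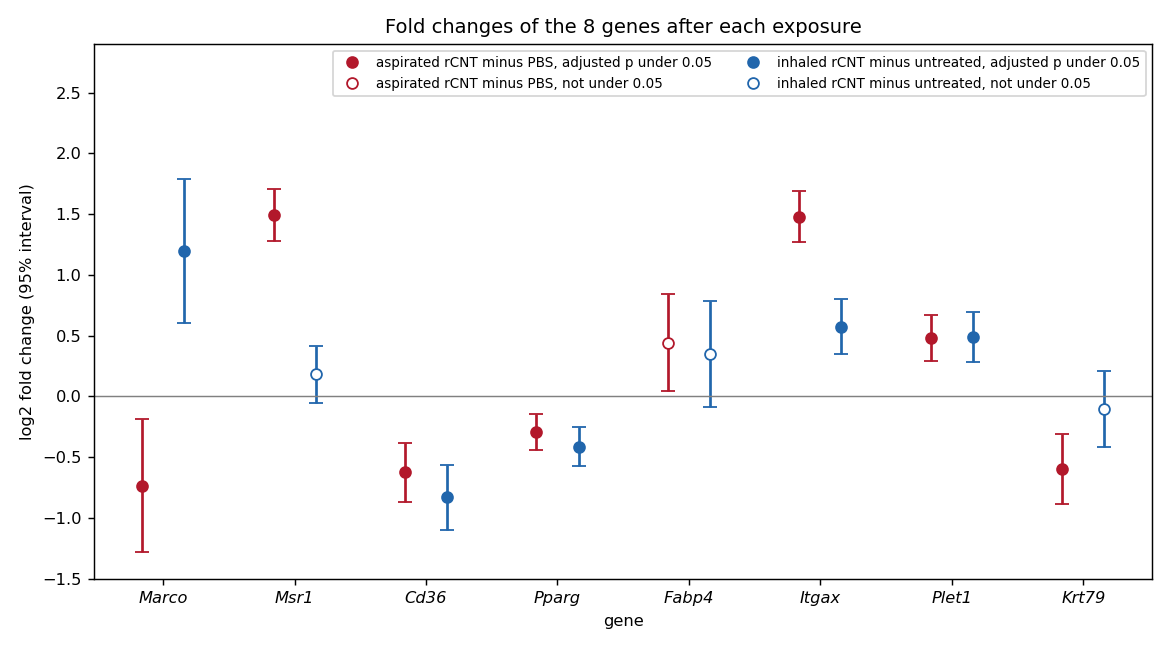
Log2 fold change of each gene after aspiration (aspirated rCNT minus PBS) and after inhalation (inhaled rCNT minus untreated), with 95% intervals from limma, filled where the adjusted p was under 0.05. The intervals of Marco lie on opposite sides of 0, and those of Cd36, Pparg and Plet1 overlap between the exposures.

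Slide 2 held 1 inhaled rCNT and 3 untreated samples and slide 3 held 2 inhaled rCNT samples and 1 untreated sample, and the inhalation changes were also read within them. With 1 sample in an arm of each slide, they are given as values with no test. Within slide 2 and slide 3 Marco changed by 1.21 and 1.29, Cd36 by -1.08 and -0.65, Pparg by -0.51 and -0.35, and Plet1 by 0.49 and 0.69. Msr1 gave 0.18 and 0.06, Fabp4 0.18 and 0.53, and Krt79 -0.02 and 0.06 there.

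The changes after the 2 exposures were compared in the same fit, as the aspiration effect minus the inhalation effect. There 57.0% of all genes passed, and of the 8 genes 2 passed higher and 2 lower. The difference was 1.31 ± 0.15 for Msr1 (limma adjusted p = 2.28e-06), 0.90 ± 0.14 for Itgax (6.82e-05), -1.93 ± 0.38 for Marco (0.000424) and -0.49 ± 0.20 for Krt79 (0.0457). Such a difference also carries any difference between the controls. PBS lungs were above untreated lungs by 1.06 in Marco, 0.57 in Krt79 and 0.33 in Itgax. The mean of Krt79 was 11.58 in aspirated and 11.48 in inhaled rCNT lungs. The call of Krt79 was lost under 15 of 27 other settings, among them leaving out any aspirated rCNT replicate but the one numbered 2. The difference did not pass for Plet1 (-0.01, 95% interval -0.29 to 0.27), Pparg (0.12, -0.09 to 0.34), Cd36 (0.21, -0.15 to 0.57) or Fabp4 (0.09, -0.50 to 0.68), and these intervals do not show that the routes act alike. With median centring it passed for Cd36 (0.72, adjusted p = 0.0118) and Pparg (0.43, 0.0232), and for Cd36 also without inhaled rCNT replicate 2 (0.39, 0.0428).

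The controls themselves differed for 4 of the 8 genes, all higher in PBS lungs, while 59.4% of all genes passed (26.3% higher and 33.2% lower). PBS lungs were above untreated lungs in Marco (1.06), Fabp4 (0.81 ± 0.19, limma adjusted p = 0.00161), Krt79 (0.57 ± 0.13, 0.00189) and Itgax (0.33 ± 0.10, 0.00801), and their samples did not overlap, as held for 49.2% of all genes. Inhaled rCNT lungs set against PBS lungs, where 55.2% of all genes passed (27.5% higher and 27.6% lower), were lower in Cd36 (-0.59 ± 0.12, adjusted p = 0.000906), Pparg (-0.52 ± 0.08, 3.54e-05) and Krt79 (-0.67 ± 0.15, 0.00114) and higher in Plet1 (0.50 ± 0.10, 0.000482; -0.03 with median centring, 0.847). With median centring these differences from PBS lungs were -1.06 for Cd36, -1.02 for Pparg and -1.20 for Krt79. By the other Plet1 probe inhaled rCNT lungs differed from PBS lungs by -0.01 ± 0.11 (limma adjusted p = 0.948). Fabp4 gave -0.46 (adjusted p = 0.0676) and passed with median centring (-0.96, 0.00096), with array weights (-0.72, 0.00361), without PBS replicate 4 (-0.66, 0.00356) and without inhaled rCNT replicate 2 (-0.80, 0.00216). These comparisons share their samples with the exposure effects, and in both the slide goes with the group. Cd36 and Pparg were lower in inhaled rCNT lungs against either control.

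Markers of other cell types that express these genes were read in the same samples. Over all genes tested 20.7% rose and 26.4% fell after aspiration, and 28.4% rose and 32.5% fell after inhalation. In inhaled rCNT against PBS lungs 27.6% of all genes were lower. Of the 23 endothelial markers 21 fell and none rose after aspiration, and 20 fell and 1 rose after inhalation, among them Cdh5, the adhesion molecule VE-cadherin (-0.80 and -0.72), and Gpihbp1 of capillary endothelium (-0.70 and -0.38). Their summed intensity (log2) was 17.79 to 17.97 in aspirated rCNT lungs, against 18.56 to 18.71 in PBS lungs, and 18.16 to 18.44 in inhaled rCNT lungs, against 18.58 to 18.74 in untreated lungs. Such a sum, here and below, adds unlogged intensities, so the brightest genes weigh most and it need not follow the counts. PBS lungs were themselves below untreated lungs in Cdh5 (-0.74) and Gpihbp1 (-0.48), and inhaled rCNT lungs set against PBS lungs gave 0.02 for Cdh5 (limma adjusted p = 0.925) and 0.10 for Gpihbp1 (0.345), with 15 of the 23 markers lower there. Cd36 was low in both rCNT groups, as was the endothelial sum, and the part of endothelium in its fall was not tested. Of the 10 adipose markers, read beside Fabp4, only 6 were well above background in all samples. After aspiration 5 of the 10 fell and none rose, with a summed level of 12.44 to 13.01 in aspirated rCNT lungs, against 13.35 to 13.91 in PBS lungs. After inhalation 3 adipose markers rose and 5 fell, and the sum was 12.08 to 12.55 in inhaled rCNT lungs, against 12.63 to 13.01 in untreated lungs. Adipoq, the adipocyte hormone adiponectin, fell by 0.79 after aspiration and by 0.85 after inhalation, and was 0.80 higher in PBS than in untreated lungs. It was well above background in 2 of 3 inhaled rCNT samples. In PBS against untreated lungs, the comparison in which Fabp4 passed, 7 of the 10 adipose markers were higher and 1 lower (median 0.52). Of all genes tested 26.3% were higher and 33.2% lower there. The part of adipose tissue in the levels of Fabp4 was not tested.

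Monocyte and recruited macrophage markers were highest in aspirated rCNT lungs, as were Itgax and Msr1. After aspiration 17 of 20 rose and 1 fell (median 1.51, against -0.04 over all genes tested), and after inhalation 9 rose and 5 fell (median 0.10, against -0.02). Of all genes tested 20.7% rose and 26.4% fell after aspiration, and 28.4% rose and 32.5% fell after inhalation. With median centring 6 of the 20 markers rose and 9 fell after inhalation (median -0.26, against -0.15). The sum was 17.87 to 17.99 in aspirated rCNT lungs, against 17.28 to 17.38 in PBS lungs, and 17.47 to 17.54 in inhaled rCNT lungs, against 17.36 to 17.50 in untreated lungs. Of the 12 dendritic cell markers 6 rose and 1 fell after aspiration, and 5 rose and 4 fell after inhalation (with median centring 3 rose and 4 fell). Their sum, which the brightest markers set, was 16.88 to 17.03 in aspirated rCNT lungs, below the 17.14 to 17.22 of PBS lungs although more markers rose than fell. It was 17.08 to 17.27 in inhaled rCNT lungs, above the 16.68 to 16.87 of untreated lungs. Cell cycle genes rose as well, 13 of 13 after aspiration and 10 of 13 after inhalation. The part of these cells in the rises of Itgax and Msr1 was not tested.

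**Figure D3:**
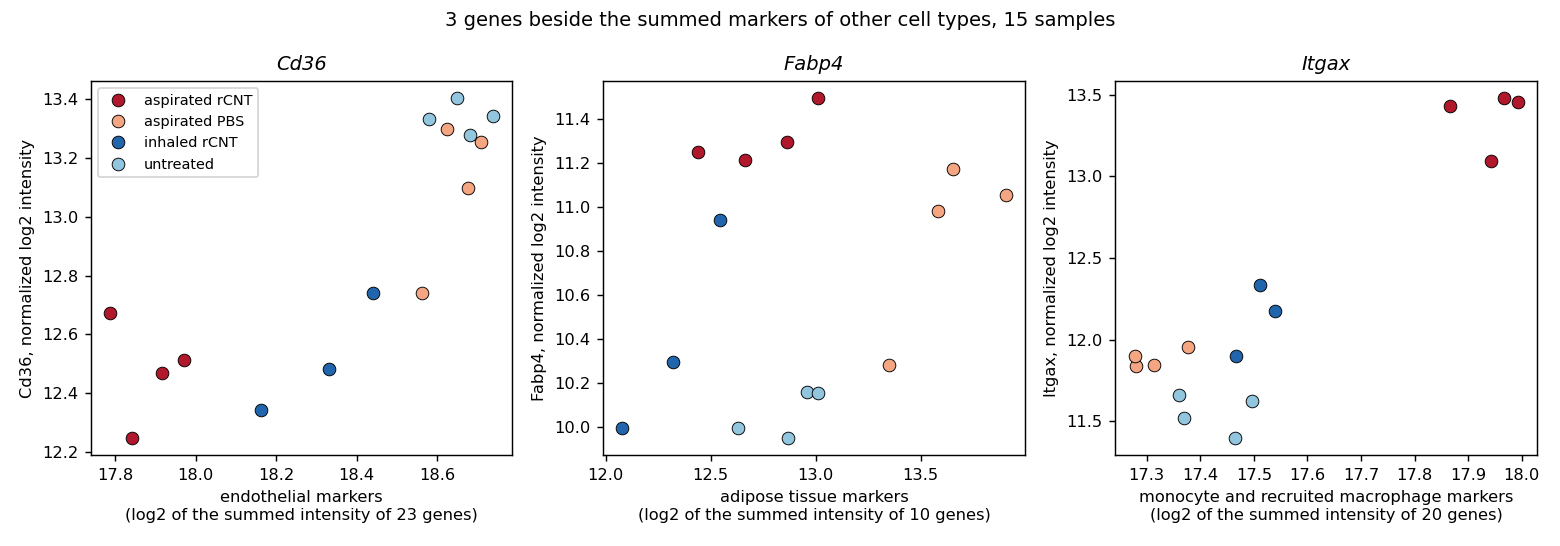
Each panel sets 1 gene (normalized log2 intensity) against the log2 summed intensity of markers of another cell type, with 1 point per sample. The brightest markers weigh most in a sum. Cd36 and the endothelial sum are both low in the rCNT groups, Fabp4 is highest in aspirated rCNT lungs where the adipose sum is below that of PBS lungs, and Itgax and the monocyte sum are highest in aspirated rCNT lungs.

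Other markers of the lung were counted as well. Of all genes tested 47.2% passed after aspiration (20.7% higher and 26.4% lower) and 60.9% after inhalation (28.4% higher and 32.5% lower). Taken in both directions, the alveolar type 2 markers passed about as often as all genes. With median centring 3812 of all 25251 genes rose and 10197 fell after inhalation. Of the 12 alveolar type 2 markers 1 rose and 5 fell after aspiration (median -0.24), and 2 rose and 5 fell after inhalation (median -0.32; with median centring 0 rose and 10 fell, median -0.77). Of the 9 club and ciliated cell markers 4 rose and 5 fell after aspiration (median -0.97), and 4 rose and 3 fell after inhalation (median 0.04; with median centring 4 rose and 4 fell, median -0.15). Of the 7 eosinophil markers 6 rose after aspiration, and 2 rose and 2 fell after inhalation. Only 4 of the 7 were well above background in all samples. Prg2 was so in the 4 aspirated rCNT samples, 1 PBS sample and no other. It was therefore tested only through the group in which it is high. Of the 10 neutrophil markers 5 rose and 1 fell after aspiration, and 2 rose and 4 fell after inhalation.

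The other genes of alveolar macrophages did not move as a block. Of 29 tested, 16 of which stand in another list here as well, 13 rose and 7 fell after aspiration (median 0.14), and 9 rose and 13 fell after inhalation (median -0.10). The shares of all genes passing were 47.2% after aspiration and 60.9% after inhalation. With median centring 3 of the 29 rose and 15 fell after inhalation (median -0.34), where the median of all genes was -0.15. Siglecf, the sialic acid lectin used to sort these cells, and the ribonucleases Ear1 and Ear2 were clearly lower after inhalation. Eosinophils express these genes too, and Siglecf stands in the eosinophil list here as well. Siglecf was at 8.29 to 8.59 in inhaled rCNT lungs, against 9.92 to 10.43 in untreated lungs, a change of -1.71 ± 0.11 (limma adjusted p = 2.42e-09). Ear1 changed by -1.99 ± 0.11 (1.2e-09) and Ear2 by -1.46 ± 0.10 (1.19e-08) after inhalation. After aspiration none of the 3 passed, at 0.14 ± 0.10 for Siglecf, 0.03 ± 0.10 for Ear1 and 0.11 ± 0.10 for Ear2. Inhaled rCNT lungs were lower than PBS lungs too, with differences of -1.96 for Siglecf, -1.98 for Ear1 and -1.90 for Ear2 (limma adjusted p of 4.78e-09, 8.89e-09 and 6.19e-09).

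Chil3, a chitinase-like protein of these cells, and Mrc1, the mannose receptor, rose after both exposures. Chil3 rose by 2.02 ± 0.09 (limma adjusted p = 7.86e-11) after aspiration and 1.18 ± 0.10 (6.81e-08) after inhalation, and Mrc1 by 1.09 ± 0.09 (4.46e-08) and 0.60 ± 0.09 (3.94e-05). With median centring the inhalation change of Mrc1 was 0.25 (0.139).

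**Figure D4:**
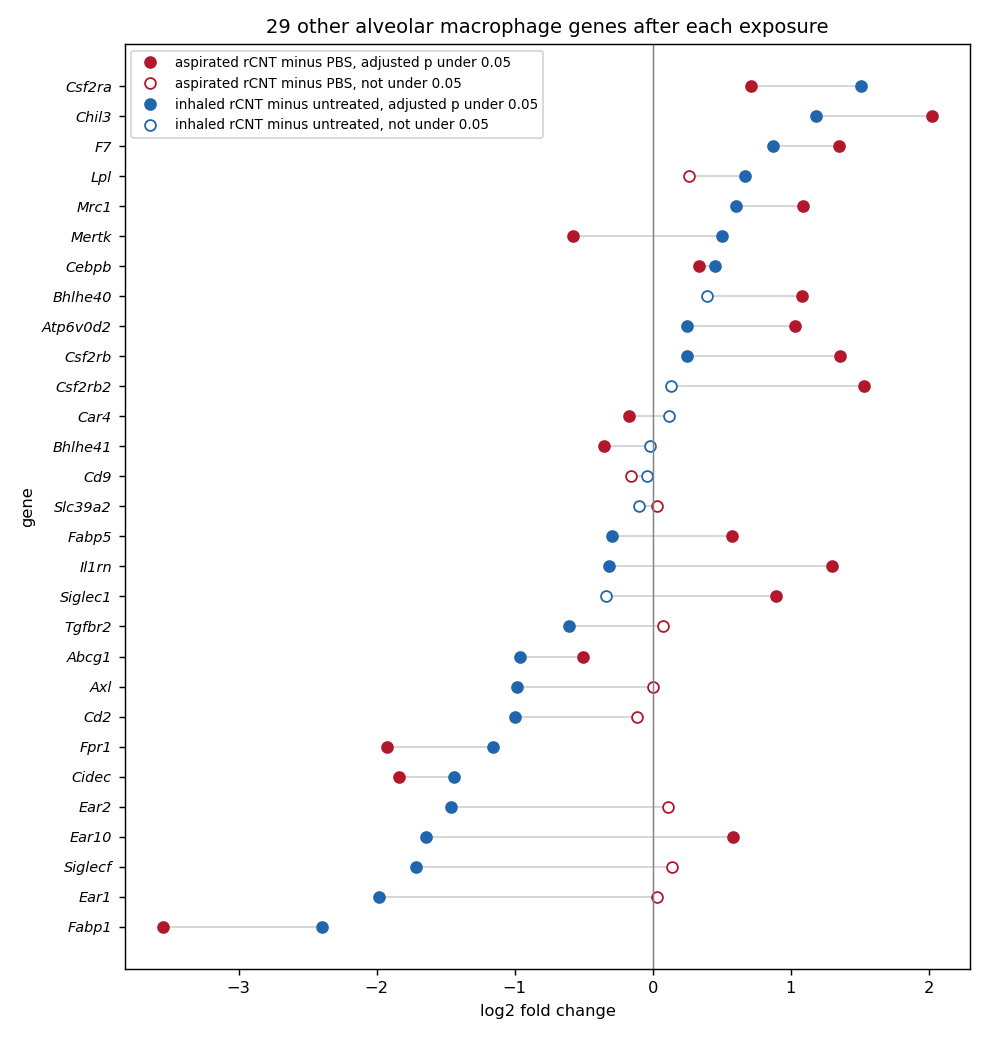
Log2 fold changes of the 29 other alveolar macrophage genes tested, 1 row per gene, in red after aspiration and in blue after inhalation, filled where limma's adjusted p was under 0.05. Siglecf, Ear1, Ear2 and Ear10 lie far to the left after inhalation and at or above 0 after aspiration, whereas Fabp1 and Cidec lie far to the left after both.

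In the list of GM-CSF, TGF-beta and PPAR-gamma control 14 of 27 genes rose and 7 fell after aspiration (median 0.26), and 10 rose and 6 fell after inhalation (median 0.06; with median centring 4 rose and 11 fell, median -0.20). For comparison, 47.2% of all genes passed after aspiration and 60.9% after inhalation. The cytokine gene Csf2 rose by 0.54 ± 0.11 (limma adjusted p = 0.00104) after aspiration and 0.70 ± 0.12 (0.000145) after inhalation. Csf2ra, the specific chain of its receptor, rose by 0.71 ± 0.08 (2.13e-06) after aspiration and 1.51 ± 0.09 (1.15e-09) after inhalation, but PBS lungs were also 2.03 above untreated lungs. Against PBS lungs the change of Csf2ra in inhaled rCNT lungs was -0.52 ± 0.09 (limma adjusted p = 0.000116), so its direction depends on the control. Csf2rb, the shared receptor chain, rose by 1.36 ± 0.09 (5.41e-09) after aspiration. Its inhalation change of 0.25 ± 0.10 (0.0347) was lost without untreated replicate 1 (0.0695), and with median centring it was -0.08.

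Among PPAR-gamma targets and other genes of lipid handling, 5 of 28 rose and 13 fell after aspiration (median -0.30), and 4 rose and 14 fell after inhalation (median -0.26; with median centring 2 rose and 20 fell, median -0.61). Among all genes tested 26.4% fell after aspiration and 32.5% after inhalation, and 20.7% and 28.4% rose. Fabp1, a fatty acid binding protein, was at 7.18 to 7.73 in aspirated rCNT lungs, against 10.92 to 11.31 in PBS lungs, and at 8.28 to 8.72 in inhaled rCNT lungs, against 10.77 to 11.13 in untreated lungs. Cidec, a protein of lipid droplets, changed by -1.84 ± 0.13 (limma adjusted p = 1.32e-08) after aspiration and -1.44 ± 0.14 (3.62e-07) after inhalation. The cholesterol exporters fell too, Abcg1 by 0.50 after aspiration and 0.96 after inhalation, and Abca1 by 0.35 and 0.33. PBS lungs themselves differed from untreated lungs, by -0.57 in Abcg1 and -0.28 in Abca1. Inhaled rCNT lungs set against PBS lungs gave -0.39 for Abcg1 (limma adjusted p = 0.000322) and -0.05 for Abca1 (0.718). Fabp5, a relative of Fabp4, and Plin2, a coat protein of lipid droplets, rose after aspiration (0.58 and 0.65). Both were lower after inhalation, Fabp5 by -0.29 ± 0.12 (limma adjusted p = 0.0459, and 0.0993 without untreated replicate 1) and Plin2 by -0.31 ± 0.09 (0.00609). Set against PBS lungs, inhaled rCNT lungs gave -0.08 for Fabp5 (0.597) and -0.07 for Plin2 (0.549).

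Of the 24 other scavenger receptors tested, 20 were well above background in all samples. Cd163 was so in 3 aspirated rCNT and 2 PBS samples only, so it was tested only through the aspirated rCNT group. Of the 24, 11 rose and 3 fell after aspiration (median 0.09), and 6 rose and 9 fell after inhalation (median -0.11). Over all genes tested 47.2% passed after aspiration and 60.9% after inhalation. With median centring 3 of the 24 rose and 12 fell after inhalation (median -0.27). Cd14, a receptor of lipopolysaccharide and of dying cells, rose by 1.54 ± 0.09 (limma adjusted p = 1.16e-09) after aspiration and 0.89 ± 0.10 (9.5e-07) after inhalation. Olr1, a receptor of oxidized lipoprotein, rose by 1.08 ± 0.11 (6.04e-07) after aspiration and gave 0.12 ± 0.12 (0.388) after inhalation. Against PBS lungs, inhaled rCNT lungs gave -0.39 for Olr1 (limma adjusted p = 0.00947) and 1.16 for Cd14 (1.44e-07). Scarb1, the class B receptor related to Cd36, was 0.17 ± 0.06 higher after aspiration (0.0326, and 0.168 with median centring) and changed by -0.40 ± 0.07 (6.07e-05) after inhalation. In Scarb1 PBS lungs differed from untreated lungs by -0.51, and inhaled rCNT lungs from PBS lungs by 0.105 (0.183). Cd68 is not analysed here.

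The 8 genes followed no common pattern over the 15 samples. The closest pair was Msr1 and Itgax (Pearson r = 0.935), and the farthest was Pparg and Plet1 (-0.771). Within groups these correlations were -0.415 and -0.109, so the likeness lay between the groups, which share slide, route and control. Among all named genes tested, the most like Msr1 were Clec10a, a lectin of dendritic cells and macrophages (0.986), and Prm1 (0.985). Prm1 was well above background in the 4 aspirated rCNT samples and in no other, so it was tested only through the group in which it is high. The most like Itgax were Batf3, a dendritic cell factor (0.989), and Dok2 (0.989). Clec10a rose by 1.80 after aspiration and 0.34 after inhalation, the last lost with median centring (0.15, limma adjusted p = 0.256), and Batf3 by 2.18 and 0.96. Because they were picked for their likeness to Msr1 and Itgax in these samples, their rise after aspiration follows from that choice. Set against PBS lungs, inhaled rCNT lungs gave 0.06 for Clec10a (0.527) and 0.18 for Batf3 (0.138). Cd36 was most like Cav2 (0.973) and Gulp1 (0.971), Plet1 like 1700016C15Rik (0.952) and Thbs1 (0.946), and Pparg like Plekha6 (0.933) and Prr5l (0.929). Fabp4 was most like Naip1 (0.925, well above background in no inhaled rCNT sample) and C5ar2 (0.923), Krt79 like 0610009L18Rik (0.924) and Pdgfa (0.878), and Marco like Zbtb37 (0.893) and Mier1 (0.877). Adgre1, the macrophage surface marker F4/80, rose by 1.29 ± 0.07 (1.07e-09) after aspiration and changed by -0.40 ± 0.08 (0.000386) after inhalation.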

How the data were processed

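Lung RNA was measured on 2-colour Agilent arrays of 62976 spots. The deposited spot intensities are scanner output of Agilent Feature Extraction (version 11.0.1.1, per the file headers), 1 colour per sample. The log2 values of the deposited series table, made with limma per the submitters' processing notes, served as an alternative. They correlated at 0.994 or more with the samples' own channels, their column medians were 6.72 to 6.73, and how they were centred is not given in the sources used here.

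Median signals of each sample's own channel were corrected with normexp (offset 50), log2-transformed and quantile normalized over the 15 channels in R (4.3.3), and control and flagged spots (106 to 154 per channel, none saturated) were left out. Probes well above background in 3 samples of a group were kept, and each gene was read from its brightest probe. limma (3.58.1) was fitted with group and dye to all 15 samples, with Benjamini-Hochberg adjustment over 25251 genes, and the fit was tested on simulated data. Of 29123 probes with a RefSeq accession, 27656 had a symbol in the RefSeq gene table (GRCm38.p6), and its promoter table held windows of 6 of the 8 genes. Depth does not apply to arrays, and the number of samples limits the precision. The samples were treated as unpaired. Deviations of same-numbered samples correlated at -0.43 to -0.08 for aspiration. There same-numbered samples always carried opposite dyes, so the check could not show or exclude pairing. For inhalation they correlated at -0.06 to 0.08, against -0.09 to 0.16 for samples of different number.

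The 8 genes, the 14 gene lists and the alternatives were chosen with earlier results of these data known. Named beside the 8 genes are, by rule, the 2 genes closest in pattern to each, the 2 list members with the smallest p in each exposure effect, and genes listed by name, and values are given for 26 of them. A listed gene is not reported here. Other normalizations, filters, variance models, slide terms and leaving out each sample were tried. Loess within arrays was not used, because the other channel mostly holds RNA of no sample here.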

Additional observations from a re-analysis of the deposited data

Results flagged for a closer look

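The following values stood apart from the other samples of their group of 4, a test that chance alone meets in about 1 of 20 groups; 11 of 102 groups met it. Of the 8 genes, Itgax was lowest in aspirated rCNT replicate 3 (13.09), Plet1 was highest in PBS replicate 3 (12.36), and Pparg was highest in untreated replicate 2 (10.58). In aspirated rCNT lungs Siglecf was highest in replicate 1 (11.05), Mrc1 was lowest in replicate 3 (11.85) and Adgre1 was highest in replicate 3 (11.84). In PBS lungs Ear2 was lowest (15.14) and Clec10a highest (9.29) in replicate 4, and Fabp5 was lowest in replicate 2 (14.62). In untreated lungs Chil3 was lowest in replicate 4 (15.69) and Cdh5 in replicate 1 (13.61).

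The aspiration effect differed from the inhalation effect, in limma's test of that difference, for these genes, with the value given as aspiration minus inhalation. Of the 8 genes these were Msr1 (1.31), Itgax (0.90), Krt79 (-0.49) and Marco (-1.93). Among alveolar macrophage genes they were Ear1 (2.01), Siglecf (1.85), Ear2 (1.57), Chil3 (0.84), Mrc1 (0.49) and Fabp1 (-1.15). Among receptors of GM-CSF they were Csf2rb (1.11) and Csf2ra (-0.80), and among lipid genes Plin2 (0.96), Fabp5 (0.87) and Abcg1 (0.46). Among scavenger receptors they were Olr1 (0.96), Cd14 (0.65) and Scarb1 (0.57), and among the other genes named Adgre1 (1.70), Clec10a (1.45), Batf3 (1.22), Gpihbp1 (-0.32) and Sbsn (-0.905). Route and slide go together in each of these differences and cannot be told apart. Each value also carries any difference between PBS and untreated lungs, which was 2.03 in Csf2ra. The mean of Csf2ra was 14.1 in aspirated and 12.9 in inhaled rCNT lungs, although its value here is negative.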

How the results depend on the processing

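No call of the 8 genes in the exposure effects or in their difference turned its sign under the alternatives run, and without untreated replicate 1 all 8 kept their inhalation calls. The counts of all genes passing stayed within 1.5 times (9240 to 13908 after aspiration, 10747 to 15743 after inhalation), and the 8 genes higher or lower after aspiration numbered 2 to 4 and 3 to 4. Median centring left 1 of them higher after inhalation, against 3, made 4 higher and 1 lower in the difference of the effects, against 2 and 2, and moved the share of higher genes among all passing to 27.2% after inhalation (46.6% before), to 69.7% in the difference (50.1%), to 59.3% for PBS against untreated lungs (44.2%) and to 20.8% for inhaled rCNT against PBS lungs (49.9%). Keeping only probes detected in every sample, where Msr1 was not tested, 1 was higher in the difference. The count lower in the difference was 1 with no filter, with dye left out, with a replicate block, with array weights and with a trended, robust variance, and 1 to 2 when single samples were left out, always by the loss of Krt79. The replicate block gave 11343 genes after aspiration and 14641 after inhalation and changed no other call of the 8 genes in these effects. Marco after aspiration was also lost with only the groups compared (adjusted p = 0.0518) and with a trended, robust variance (0.0737). Fabp4 after aspiration passed with only the groups compared (0.0273) and with array weights (0.0389). A shared array as a random block could not be fitted, and median signal without background correction was added after the data were seen. The cause of these changes was not tested.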
